A study of Homo sapiens with 6 samples.

Results

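The hairpins hsa-mir-221 and hsa-mir-222 (written mir-221 and mir-222) are neighbouring microRNA (miRNA) precursors, and they were taken from the deposited table by their hairpin names, which gave 2 hairpins of the 147 listed. The table describes small RNAs of HCT116 DICER-KO cells, a human colorectal carcinoma line whose own DICER had been knocked out, so that the cells of both groups lack the endogenous enzyme. In the DICER-delHelicase rescue (3 samples) the cells had been transfected with a plasmid for DICER without its helicase domain, and in the DICER-WT rescue (3 samples) with a plasmid for full-length DICER. RNA was collected 48 h after transfection in both groups, and the DICER present in each sample was that supplied by transient transfection. The labels give no separate culture for each sample and do not say whether the knockout line is a single clone.

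A miRNA is cut from its hairpin in 2 steps, first by DROSHA at the base of the stem and then by DICER, which removes the apical loop. The DICER cut fixes the 5′ end of the miRNA on the 3′ arm (3p), and with it the seed, the bases that select target mRNAs. The helicase domain of DICER lies near the apical loop of a bound precursor. The miRNAs miR-221 and miR-222 are made mainly from their 3p arms. They share a seed and are known for repressing CDKN1B, which encodes the cell cycle inhibitor p27, and the receptor gene KIT, and they are abundant in many carcinomas.

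Both hairpins lie on the minus strand of chromosome X (GRCh38), mir-222 at chrX:45747015-45747124 and mir-221 at chrX:45746157-45746266, with 748 nucleotides between them. Both are intronic in MIR222HG, a long non-coding RNA gene that GENCODE release 29 places from 45745211 to 45770274 on the minus strand. The deposited hairpin sequences, of 130 nucleotides each, extend the RefSeq hairpins (GRCh38.p14) by 10 bases at either end. They are shown 5′ to 3′ with the 3p seed, bases 2 to 8 of the miRNA, in capitals, because this end is made by the DICER cut, which lies before base 1, the lower-case a in front of the capitals.

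mir-222: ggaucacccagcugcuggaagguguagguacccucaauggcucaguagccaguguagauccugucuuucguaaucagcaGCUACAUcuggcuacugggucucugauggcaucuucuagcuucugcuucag
mir-221: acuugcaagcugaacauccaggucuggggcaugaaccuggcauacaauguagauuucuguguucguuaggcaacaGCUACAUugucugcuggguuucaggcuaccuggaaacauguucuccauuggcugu

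The mature 3p miRNAs in RefSeq begin with the same 8 bases and then diverge. They are shown with the seed in capitals.

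miR-222-3p: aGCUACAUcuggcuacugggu
miR-221-3p: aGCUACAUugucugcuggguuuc

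A global alignment of these miRNAs matched 18 of 24 columns (75.0%), and that of the deposited hairpins matched 88 of 151 columns (58.3%). The longest run of identical bases was 8 nucleotides between the miRNAs and 9 between the hairpins, so a full-length read of either miRNA differs from the other hairpin at several positions. How reads were mapped is not stated in the sources used here. Of the 131 hairpins whose listed miRNA was found in RefSeq, only mir-222 and mir-221 had this seed, and the seed was shared by no other human miRNA among the 2370 names of the RefSeq table.

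The main value of the table is a variation score, 1 per hairpin and construct, which the file header calls a global variation. How it was calculated, and how 3 samples became 1 value, is not stated in the sources used here. There are no values per sample, so no spread between replicates could be computed and no test between the constructs was run, and the depth behind the scores is unknown. Over all hairpins the median score was 0.146 with DICER-delHelicase and 0.0804 with DICER-WT.

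The score of mir-222 (hsa-mir-222, listed for miR-222-3p) was 0.110 with DICER-delHelicase, against 0.0274 with DICER-WT. That is a difference of 0.0830 and a ratio of 4.03 (2.01 on the log2 scale). With DICER-delHelicase mir-222 had the 61st lowest score of 147, and with DICER-WT the 43rd lowest. Both scores were below the median of all hairpins, and the score with DICER-delHelicase was the closer to it.

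The score of mir-221 (hsa-mir-221, listed for miR-221-3p) was 0.00391 with DICER-delHelicase, against 0.00237 with DICER-WT. The difference was 0.00154 and the ratio 1.65 (0.72 on the log2 scale). These were the 14th and the 19th lowest scores of the table for the same constructs. Both of its scores were close to 0, and whether its small difference exceeds the spread between samples cannot be told from the table.

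**Figure D1:**
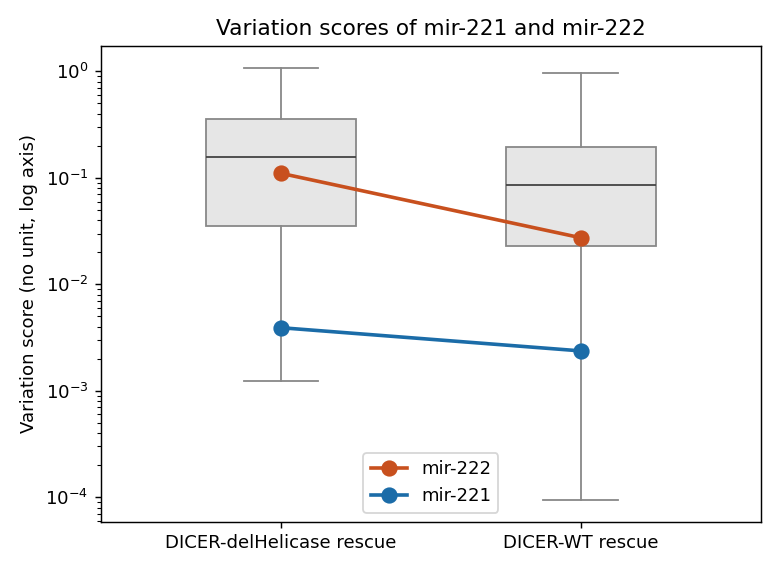
Variation score (no unit, log axis) of mir-222 (orange) and mir-221 (blue) in the DICER-delHelicase rescue and the DICER-WT rescue, 1 deposited value per point. Boxes show quartiles, median and full range of the hairpins with a score above 0, leaving out 5 hairpins at 0 with DICER-delHelicase and 6 with DICER-WT; mir-222 lies between the lower edge and the median of the box in both groups and mir-221 below the box in both.

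Both members scored higher with DICER-delHelicase, as did 72.1% of all hairpins, so this direction was that of most of the table. At least 2-fold higher scores were found for 1 of the 2 members, mir-222, and for 46.8% of the 141 hairpins with a DICER-WT score above 0. An increase of at least 0.05 was found for 1 of the 2, again mir-222, and for 46.3% of all hairpins. A score under 0.005 with both constructs was found for 1 of the 2, mir-221, and for 7.48% of all hairpins.

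The place of mir-222 in the table depended on how its change was expressed. By the difference of the scores it ranked 62nd from the highest of 147 hairpins. By their ratio it ranked 26th from the highest of 141. The change of mir-221 ranked 101st of 147 by the difference and 81st of 141 by the ratio, below the middle of the table on either scale, where the median change was 0.0261 and the median ratio 1.93.

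Hairpins with similar DICER-WT scores gave a closer setting for these ratios. Among the other 25 hairpins with a DICER-WT score within 2-fold of that of mir-222, 17 had a smaller ratio and 8 a larger one, with a median ratio of 2.65. With 1 value per miRNA, 17 had a smaller ratio and 6 a larger one, with a median of 2.27. Among the 12 hairpins within 2-fold of mir-221, 3 had a smaller ratio and 9 a larger one, with a median of 3.29, but 5 of the 12 were mir-941 copies with equal scores. With 1 value per miRNA, 3 had a smaller ratio and 4 a larger one, with a median of 2.12. Beside miRNAs of similar DICER-WT score, the ratio of mir-222 was above the middle and that of mir-221 close to it. These comparisons were chosen after the scores had been seen.

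**Figure D2:**
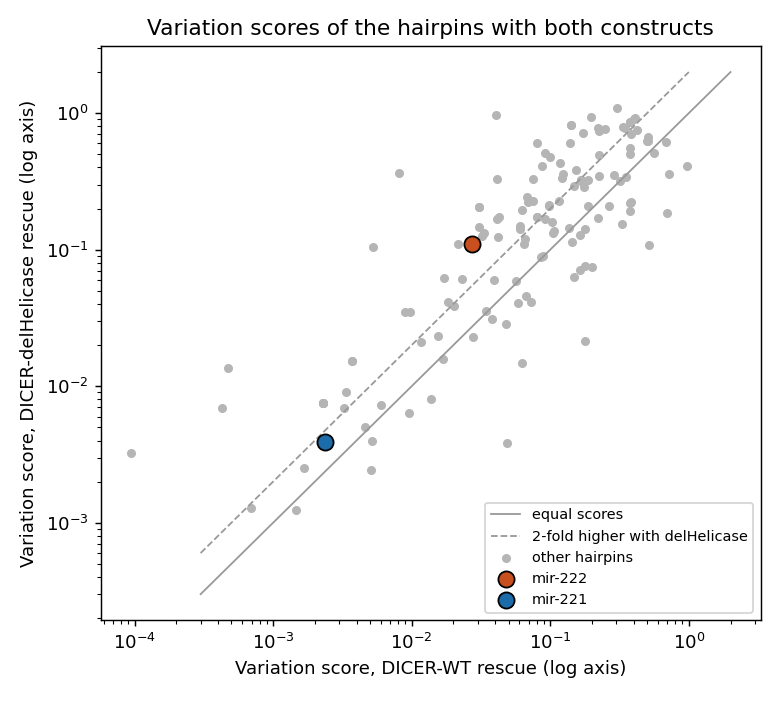
Variation score with DICER-delHelicase (vertical, log axis) against that with DICER-WT (horizontal, log axis) for the 139 hairpins above 0 in both. Solid and dashed lines mark equal scores and scores 2-fold higher with DICER-delHelicase; mir-222 (orange, ratio 4.03) lies above the dashed line and mir-221 (blue, ratio 1.65) between the lines.

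In ratio, the members differed from each other more than either differed between the constructs. With DICER-delHelicase the score of mir-222 was 28.2-fold that of mir-221, and with DICER-WT it was 11.6-fold. The lower score of mir-222, that with DICER-WT, was still 7.0-fold the higher score of mir-221. The difference between the members was 0.106 with DICER-delHelicase and 0.0250 with DICER-WT.

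The table also gives a class headed 2-nt, taken from the DICER-WT products, whose definition is not stated in the sources used here. The entry was No for mir-222 and Yes for mir-221. Over all hairpins it was No for 74 and Yes for 73. Within the No class, 40 of 74 hairpins had a smaller change than mir-222 by the difference of the scores. By the ratio, 61 of that class were smaller and 11 larger. Within the Yes class, 24 of 73 had a smaller change than mir-221 by the difference. By the ratio, 29 were smaller and 38 larger. The major 5′ end with DICER-WT was entered as 0 for both, as for 140 hairpins of the table, which was read here as no offset from a reference position that the header does not give. The members thus had the same entry for the main end and different 2-nt entries.

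The fold of each deposited hairpin was predicted by minimum free energy, which gave a single long stem with 1 apical loop for both, at -57.2 kcal/mol for mir-222 and -48.6 kcal/mol for mir-221. In the lines below, brackets are paired bases and dots unpaired ones, in the order of the sequences above.

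mir-222 fold: ........(((..(((((((((((......((.(((..(((((((((((((((((((...(((...........)))...))))).))))))))))))))..))).)))))))))))))..)))......
mir-221 fold: .......((((((((((((((((....(((.(((((((((((.(((((((((....(((((((.....))).))))))))))))).))))))).)))).))))))))))....)))))......))))..

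Both miRNAs were mostly paired in these folds, which differed at the 5′ end of the miRNA. Counting the first base of the 3p miRNA as 0, mir-222 had an apical loop of 11 nucleotides from -15 to -5, closed by 3 base pairs. Next to these came an internal loop with 3 unpaired bases on either side. On the 3p side it ran from -1 to 1, so that the cut that makes miR-222-3p falls inside it, and on the 5′ side from -21 to -19. From base 2 of this count onward the arm was paired, in runs of 5 and 14 bases with 1 unpaired base between them.

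In mir-221 the first base of the 3p miRNA was paired, with the base at -17, inside a run of 13 paired bases on that arm from -2 to 10. The apical loop had 5 nucleotides, from -11 to -7. On the opposite strand 4 bases bulged out, from -22 to -19, between the partners of the second and the third base of the miRNA. A single unpaired base at -3 separated this run from the 3 base pairs below the loop. The predicted probability that the first base is paired was 0.280 for miR-222-3p and 0.944 for miR-221-3p.

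The 12 bases before each 3p start, in lower case, and the first 12 bases of the miRNA, in capitals, show where the cut lies. The sequences share the base directly before the cut and the 8 bases after it, a run of 9, and differ at several positions on either side of that run.

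mir-222: uucguaaucagcAGCUACAUCUGG
mir-221: ucguuaggcaacAGCUACAUUGUC

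**Figure D3:**
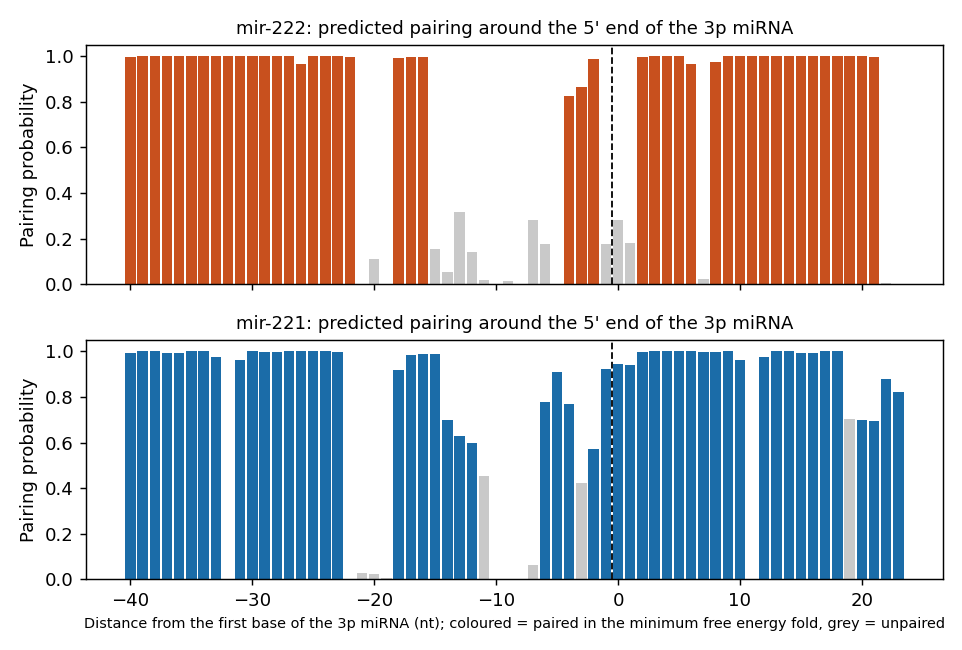
Predicted probability that a base is paired (vertical, 0 to 1) against its distance from the first base of the 3p miRNA in nucleotides, for mir-222 (top) and mir-221 (bottom). Coloured bars are bases paired in the minimum free energy fold, grey bars unpaired ones, and the dashed line is the 5′ end of the 3p miRNA; it falls in an unpaired stretch in mir-222 and in a paired stretch in mir-221.

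Against the 131 hairpins with a located miRNA, the apical loop of mir-222 was larger than in 109 hairpins, and that of mir-221 larger than in 37 (median 6 nucleotides). In the 10 bases around the 3p start, 4 were unpaired in mir-222 and 1 in mir-221, where the median was 2. Fewer unpaired bases than in mir-222 were found in 103 hairpins, and fewer than in mir-221 in 7. The number of unpaired bases within the miRNA itself was near the median of 3 in both, with 3 in miR-222-3p and 2 in miR-221-3p. RefSeq also lists miR-222-5p, which ends 16 bases before the start of miR-222-3p, equal to the median of the 107 hairpins with both arms located. For mir-221 only the 3p miRNA was used.

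An unpaired first base, as in mir-222, was predicted for 18 of the 131 hairpins, and a paired one, as in mir-221, for 113. The 18 hairpins had median scores of 0.0292 with DICER-delHelicase and 0.0173 with DICER-WT, and the 113 had medians of 0.168 and 0.0914 for the same constructs. The median ratio was 1.36 in the unpaired set and 1.96 in the paired set, over the 16 and 109 hairpins with a ratio. The scores of mir-222 were above the medians of the unpaired set, and its ratio of 4.03 was the largest of the 16 hairpins there that had a ratio. By the difference of the scores it was not the largest, with 14 hairpins of the set below it and 3 above. The scores of mir-221 were below the medians of the paired set, where 9 of 113 hairpins scored lower with DICER-delHelicase than mir-221 did and 11 of 113 scored lower with DICER-WT. The part of the fold in the scores was not tested.

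A difference between neighbours was common in the table. Coordinates were taken only where the RefSeq hairpin of the same name lay within the deposited sequence, as for 127 of the 147 hairpins. These formed 34 other pairs on the same strand within 10 kb, from 40 hairpins. The other 20 hairpins could not enter a pair, so the counts of neighbours may be incomplete. The log2 ratios of mir-222 and mir-221 were 1.29 apart. Of the 33 other pairs with a ratio for both hairpins, 18 were closer together and 15 farther apart (median 1.15). When the 6 pairs of mir-941 copies, which have equal scores, were left out, 12 pairs were closer and 15 farther apart. In level the pair was more unlike. With DICER-delHelicase the scores of mir-222 and mir-221 were 4.82 apart on the log2 scale, more than in 29 of 33 pairs. With DICER-WT they were 3.53 apart, more than in 26 of 34. Without the mir-941 copies these counts were 23 of 27 and 20 of 28 for the same constructs.

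Both hairpins of the pair scored higher with DICER-delHelicase. This was so in 17 of the other 34 pairs, while in 16 the hairpins differed in opposite directions and in 1 both were lower. Without the mir-941 copies both were higher in 11 of 28 pairs and opposite in 16. The hairpins had different 2-nt entries, as in 18 of the 34 pairs, or 18 of 28 without the copies. Only pairs of hairpins with coordinates and both ratios could be ordered. Of these, the farthest apart in log2 ratio were let-7e and mir-125a (5.80), mir-25 and mir-106b (4.13), mir-200b and mir-429 (3.79) and mir-99b with mir-125a (3.19). Apart from the mir-941 copies, the closest of the ordered pairs was mir-23b with mir-24-1 (0.21). Several of these pairs share a hairpin or a cluster and are not independent of each other.

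**Figure D4:**
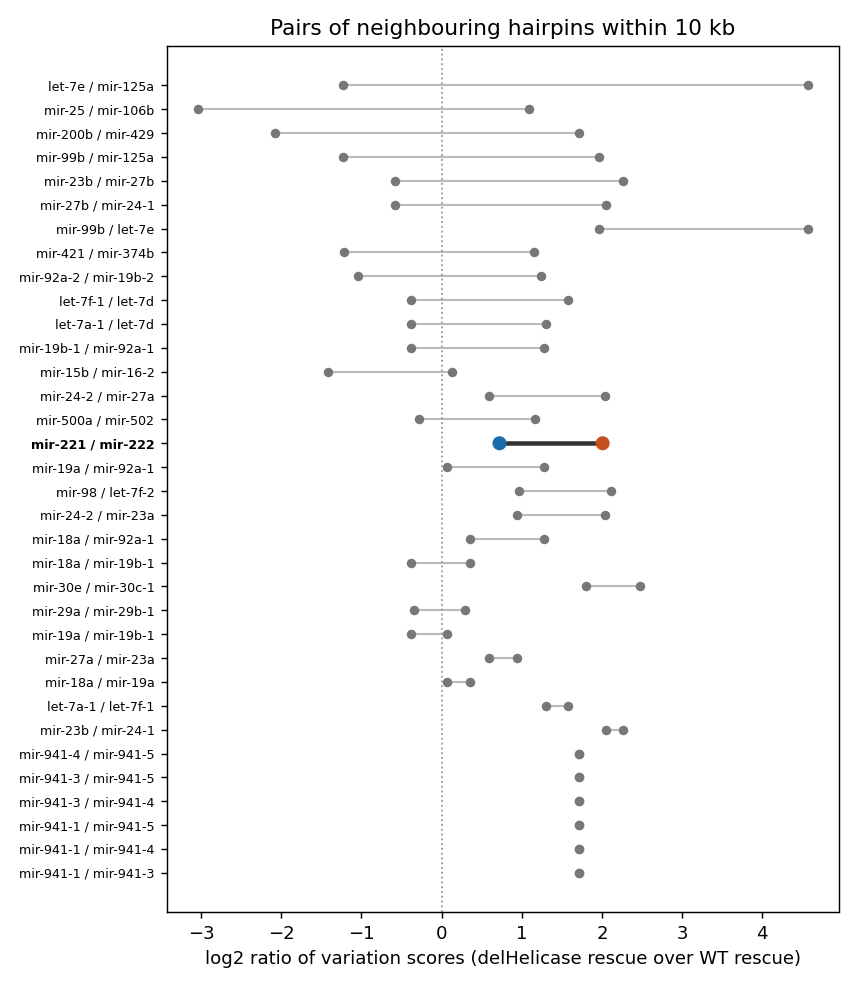
Log2 ratio of the variation scores (DICER-delHelicase over DICER-WT) of both hairpins in each pair within 10 kb on the same strand, 1 pair per row, ordered by the distance between its points. Only hairpins with coordinates are included. The pair of mir-222 (orange, 2.01) and mir-221 (blue, 0.72) lies near the middle of the order with both points above 0.

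The hairpins most like each member were found by the distance between their ranks in the 2 constructs, which are 2 values per hairpin. The hairpin nearest to mir-222 was mir-615, with 0.111 under DICER-delHelicase and 0.0217 under DICER-WT. It was followed by mir-374a, with 0.125 and 0.0324 for the same constructs, and mir-92b, with 0.132 and 0.0334. Then came mir-197 and mir-22. Their ratios ran from 2.65 for mir-197 to 5.11 for mir-615, and only that of mir-615 was above the ratio of mir-222. Since these 5 hairpins were picked for lying near mir-222 with both constructs, ratios like its own follow from the choice. Of the 5, 3 were in its 2-nt class.

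The hairpin nearest to mir-221 was mir-25, with 0.00693 under DICER-delHelicase and 0.00326 under DICER-WT. It was followed by mir-15b, with 0.00507 and 0.00463 for the same constructs, by mir-19b-1, with 0.00395 and 0.00517, and by mir-27a, with 0.00253 and 0.00168. The fifth was mir-19b-2, with 0.00245 and 0.00506. Of these 5 hairpins 3 scored higher with DICER-delHelicase and 2 lower. Since they were picked for lying near mir-221 with both constructs, their small differences follow from the choice. Chosen by the DICER-WT score alone, 11 of the 12 hairpins within 2-fold of mir-221 scored higher with DICER-delHelicase, or 6 of 7 with 1 value per miRNA. The share over all hairpins was 72.1%. This choice, too, used 1 of the 2 scores compared, so the direction is not free of the selection.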

How the data were processed

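Small RNA libraries were made from 10 µg of total RNA, cut from a 12% urea gel, per the labels' protocols. The submitters' processing notes name cutadapt, Bowtie2, bedtools and the build GRCh38, without versions. What each step did is not stated in the sources used here. The authors deposited a variation score per hairpin and construct, 294 lines for 147 hairpins and 127 miRNAs. It is neither a count nor a fraction, its depth is unknown, and no column names a sample. Differences (delHelicase minus WT), ratios (delHelicase over WT, for DICER-WT scores above 0) and ranks over all hairpins were computed here, with no test. Folds were predicted with ViennaRNA 2.7.2 at its default settings and sequences aligned with Biopython 1.88 (match 1, mismatch -1, gap opening -2, gap extension -0.5). Functions were tested on made-up structures with known answers. Sequences and coordinates are from the deposited table and RefSeq (GRCh38.p14), the host gene from GENCODE 29. Named hairpins are the members, the 5 nearest to each by rank distance, the 4 widest and 4 closest neighbouring pairs and the hairpins of chromosome X. The pairs and the chromosome X list hold only hairpins with coordinates. The 4 closest pairs were all mir-941 copies, so mir-23b with mir-24-1 was added after its values were seen. Members, lists and comparisons were chosen with earlier results of these data known.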

Additional observations from a re-analysis of the deposited data

How the results depend on the processing

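The share of hairpins with a smaller change was 57.8% for mir-222 by the difference of scores. It was 81.3% by the log2 ratio of the 139 hairpins above 0 in both and 82.3% with a pseudocount of 0.01. For mir-221 the share was 31.3%, against 41.7% by the log2 ratio. The cause was not tested. The predicted apical loop of mir-221 had 5 nucleotides in the minimum free energy fold and 7 in the centroid fold. Of 20 alternatives the other 16 left loop sizes equal and shares within the exact Clopper-Pearson 95% interval of the main value, which treats hairpins as independent and holds no error between samples. The alternatives reuse the same hairpins, so staying within this interval is a weak check. For the pairs it ran from 36.4% to 71.9%. There the share of closer pairs went from 54.5% to 44.4% when copies were left out. Among the 16 were 1 value per miRNA, offset 0 only, the member's own 2-nt class, the pseudocount for mir-221, folds without dangling ends or, for mir-222, of the precursor alone, the centroid fold for mir-222, and pairs within 2 kb or by the difference of scores. Chosen after seeing the data were similar DICER-WT scores and pairs without copies. The precursor fold was not run for mir-221. No paired analysis was possible because each construct has 1 deposited score for a hairpin. For the same reason no replicate could be left out. The unknown depth limits the reading of mir-221, whose scores are near 0.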

Other observations

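Chromosome X carried 16 of the hairpins with RefSeq coordinates. Besides mir-222 and mir-221 these were 14 hairpins, of which 8 had the higher score with DICER-delHelicase and 5 the lower, with 1 equal. Their median ratio was 2.22. The ratio of mir-222 was exceeded in 3 of them, namely mir-424 (7.56), let-7f-2 (4.34) and mir-320d-2 (4.09). The ratio of mir-221 was exceeded in 8. The lower ones were mir-502 (ratio 0.821), mir-421 (0.430), mir-361 (0.423), mir-652 (0.831) and mir-19b-2 (0.485). The DICER-delHelicase score was below that of mir-221 in 2 of the 14, mir-19b-2 and mir-676, the second of which was at 0 with both constructs. The remaining ones, mir-500a, mir-98, mir-374b, mir-374a and mir-92a-2, had ratios from 1.96 to 3.87.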
